A study of Mus musculus with 4 samples.

Results

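The mRNA levels of 10 glycolytic enzymes were examined in 3T3-L1 cells, a murine preadipocyte line, after 8 days of adipogenic differentiation. The genes were Hk2, Gpi1, Pfkl, Pfkp, Aldoa, Tpi1, Gapdh, Pgk1, Eno1 and Ldha. They are 10 of 13085 measured genes, each has 1 row in every sample, and all 10 were kept. They were selected from the enzymes of glycolysis with the FPKM values and the fold changes of these same 4 samples known. Their levels and the contrasts between samples are therefore a description, and no test was made on them. FPKM is the number of fragments per kilobase of transcript and per 1000000 mapped fragments.

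Glycolysis splits glucose into pyruvate in the cytosol and yields ATP and NADH. Hexokinase and phosphofructokinase are among its regulated steps, and lactate dehydrogenase reoxidizes NADH by turning pyruvate into lactate. In fat cells the pathway also supplies glycerol 3-phosphate, the backbone of triglyceride, and acetyl-CoA for fatty acids. The transcription factor HIF1 is known to raise the mRNAs of most of these enzymes under low oxygen, through DNA elements with the core ACGTG or GCGTG. Gapdh is widely used as a reference gene in RT-qPCR.

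The 4 stable lines of 3T3-L1 were compared, each with 1 sample, to ask how CACUL1, a corepressor of nuclear receptors, acts on adipogenesis. FLAG carried the empty FLAG vector and FLAG-CACUL1 overexpressed FLAG-tagged CACUL1, and both were selected with G418. The line sh-Luc carried a hairpin against luciferase and sh-CACUL1 one against CACUL1, and both were selected with hygromycin B. Every line was induced with insulin at 5 µg/mL, dexamethasone at 1 µg/mL, the phosphodiesterase inhibitor IBMX at 0.5 mM and the PPARγ ligand rosiglitazone at 5 µM, and then received insulin medium every 2 days until day 8. Resistant colonies were selected for all lines, and whether a line is a pool or 1 clone is not stated, so CACUL1 status, vector, drug and clone cannot be told apart within these samples. With 1 sample per line no spread between cultures was known, and every difference below has no replicate check.

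Depth was estimated at 14500000 fragments in FLAG and 14300000 in FLAG-CACUL1, with 24000000 in sh-Luc and 15000000 in sh-CACUL1. Values of the 10 enzymes then rest on 380 to 178392 estimated fragments. Their exact 95% Poisson intervals cover counting error only, and the half-width of an interval was at most 10.2% of the level. Cacul1 itself was at 9.61, 11.8, 10.2 and 5.39 FPKM in the order FLAG, FLAG-CACUL1, sh-Luc, sh-CACUL1, which all lists of 4 values below follow. The species of the FLAG-CACUL1 insert is not given in the sources used here, and transcripts of an insert from another species need not be counted in the mouse row. FLAG-CACUL1 had all 10 adipocyte markers lower than FLAG by 2-fold or more, and sh-CACUL1 had all 10 higher than sh-Luc by that much. The controls differed too: 9 of the 10 markers were at least 2-fold higher in FLAG than in sh-Luc, beside 8.58% of all genes. The median log2 difference of the 10 was 2.23. The summed level of the 10 markers was 8625, 925, 1781 and 18034 FPKM. Fabp4, a fatty acid binding protein, was at 4991, 320, 1020 and 12543 FPKM, and Adipoq, the adipokine adiponectin, at 837, 23.0, 171 and 1252 FPKM. The 11 measured preadipocyte and fibroblast markers summed to 9677, 12794, 6743 and 1392 FPKM, with Pdgfra, a growth factor receptor of preadipocytes, at 13.0, 40.9, 84.9 and 24.2 FPKM. These sums are mostly collagen, Vim and Fn1 mRNA, and the list did not move as 1. In FLAG-CACUL1 over FLAG 6 of the 11 were at least 2-fold higher and 1 lower, beside 7.51% and 7.22% of all genes. In sh-CACUL1 over sh-Luc 2 were higher and 8 lower by as much, beside 4.94% and 16.4%. Dlk1, which was chosen after its values were seen, was at 97.2, 39.4, 0.220 and 21.2 FPKM. Fewer cells of a type and less RNA per cell cannot be told apart in such bulk samples. Of the macrophage, endothelial and skeletal muscle lists only 2, 2 and 1 genes had a row, and the endothelial and muscle genes summed to under 1 FPKM in every sample. The macrophage genes summed to 16.8 FPKM in FLAG and to 1.84, 1.08 and 1.20 in the others, most of it from Cd68 (likewise chosen after its values were seen), so they too were highest in FLAG, and their part in the results was not tested. The defining markers of macrophages, endothelial cells and muscle without a row were not analysed here.

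The start sites of 4 of the enzymes are shown because these promoters hold the ACGTG core. Aldoa, which also holds it, is not shown. Enzymes with and without this core shared the order of samples given below, and a link between core and order was not tested. Each sequence covers 300 bases around a RefSeq start, most of them upstream, on GRCm38.p6, 5′ to 3′ on the strand of the gene, and capitals mark ACGTG or its reverse complement CACGT. Hk2 lies at chr6:82774405-82774704 on the minus strand, Gapdh at chr6:125165724-125166023 on the minus strand, Pgk1 at chrX:106186850-106187149 on the plus strand, and the upstream start of Ldha at chr7:46845554-46845853 on the plus strand.
Hk2: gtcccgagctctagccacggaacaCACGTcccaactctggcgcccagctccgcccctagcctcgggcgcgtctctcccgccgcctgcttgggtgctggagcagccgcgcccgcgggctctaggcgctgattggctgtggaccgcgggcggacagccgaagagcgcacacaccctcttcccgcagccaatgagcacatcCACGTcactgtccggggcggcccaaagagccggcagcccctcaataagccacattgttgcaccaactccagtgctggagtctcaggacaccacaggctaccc
Gapdh: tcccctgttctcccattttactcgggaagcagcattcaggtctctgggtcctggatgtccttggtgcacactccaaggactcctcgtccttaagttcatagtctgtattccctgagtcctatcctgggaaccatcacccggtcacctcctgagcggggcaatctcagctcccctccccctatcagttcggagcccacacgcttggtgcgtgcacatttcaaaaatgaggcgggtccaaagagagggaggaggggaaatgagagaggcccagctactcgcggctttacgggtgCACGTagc
Pgk1: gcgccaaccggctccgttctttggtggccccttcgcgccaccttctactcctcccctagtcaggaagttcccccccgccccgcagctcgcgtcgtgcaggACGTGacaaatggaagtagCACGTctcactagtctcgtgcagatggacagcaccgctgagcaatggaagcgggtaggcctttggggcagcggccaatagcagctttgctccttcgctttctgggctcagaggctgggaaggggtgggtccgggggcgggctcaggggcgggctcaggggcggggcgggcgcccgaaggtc
Ldha: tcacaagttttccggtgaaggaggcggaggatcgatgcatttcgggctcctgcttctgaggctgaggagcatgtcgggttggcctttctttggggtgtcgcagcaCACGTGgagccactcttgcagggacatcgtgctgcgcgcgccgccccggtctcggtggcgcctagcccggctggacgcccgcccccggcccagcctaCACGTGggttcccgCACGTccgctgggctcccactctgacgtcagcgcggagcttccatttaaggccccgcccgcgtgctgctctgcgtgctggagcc

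All 10 enzymes matched a RefSeq promoter of that length, with 15 starts between them. ACGTG, searched on both strands, was in 6 of these 15 promoters and in 5 of the 10 genes (Hk2, Gapdh, Pgk1, Ldha and Aldoa), beside 19.6% of all 32851 promoters. Hk2 and Pgk1 had 2 matches each and Gapdh had 1, within its first transcribed bases. The upstream start of Ldha had 3 capital runs, of which 2 are CACGTG, a longer run that reads the same on both strands. No other promoter of these enzymes held CACGTG, which was in 7.15% of all promoters. GCGTG was in 8 of the 15 promoters and in 5 of the 10 genes (Gapdh, Ldha, Eno1, Pfkl and Pfkp), beside 32.4% of all promoters. Overlapping windows count the same match more than once, in a pair of Aldoa starts for ACGTG and a pair of Eno1 starts for GCGTG. The shares over all promoters are per promoter, and a gene with several starts has more chances of a match. Tpi1 and Gpi1 held none of the 3 letter runs. Such matches are descriptions of letters and not of binding, and an absent match says only that these letters are not in the window.

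In FPKM the 10 enzymes shared an order of samples: each was highest in FLAG, next in FLAG-CACUL1, and lowest in one or the other of the hairpin lines. This order held for 9.86% of all 13085 genes, and 22.3% of all genes were highest in FLAG. Among the 3823 genes that reached 10 FPKM in every sample the order held for 11.6% and FLAG was highest for 24.5%. The summed level of the 10 enzymes was 17233 FPKM in FLAG and 6523 in FLAG-CACUL1, against 3242 in sh-Luc and 3851 in sh-CACUL1. These sums are 3.65%, 1.38%, 0.779% and 1.03% of all FPKM in their sample. Tpi1 left this order under quantile normalization, median-of-ratios scaling and rescaling to a common sum, where its level in sh-CACUL1 passed that in FLAG-CACUL1. FLAG stayed the highest sample for all 10 enzymes under the 3 scalings.

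**Figure D1:**
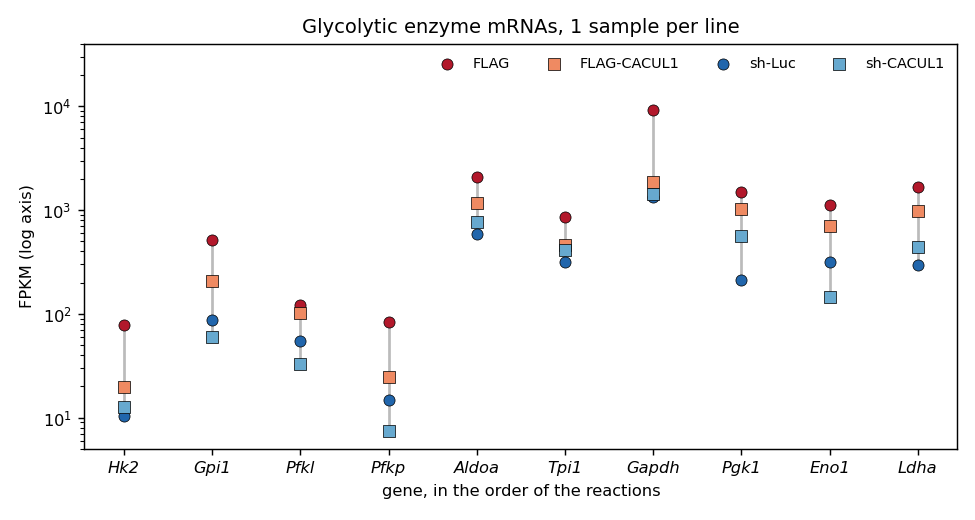
FPKM on a log axis for each enzyme, in the order of the reactions, with 1 point per sample, circles for the controls FLAG and sh-Luc, squares for FLAG-CACUL1 and sh-CACUL1, and a grey line from the lowest to the highest sample. FLAG is the top point for all 10 genes, and Gapdh in FLAG, at 9160 FPKM, is far above the other points.

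The first step, phosphorylation of glucose, is done by hexokinase 2 (Hk2), an insulin-responsive isozyme bound to mitochondria and encoded at chr6:82725025-82774454 on the minus strand. Hk2 was at 78.6 FPKM in FLAG and 19.9 in FLAG-CACUL1, against 10.4 in sh-Luc and 12.7 in sh-CACUL1. FLAG thus stood 3.95-fold above FLAG-CACUL1 and 7.57-fold above sh-Luc, while the hairpin lines lay within 1.23-fold of each other. The other hexokinase, the housekeeping isozyme Hk1, was at 148, 76.4, 47.8 and 8.84 FPKM. Hk1 was lowest in sh-CACUL1, so Hk2 held 34.7%, 20.6% and 17.8% of the summed hexokinase FPKM in FLAG, FLAG-CACUL1 and sh-Luc and 58.9% in sh-CACUL1. Hkdc1, a further hexokinase-domain gene, held under 1% in every sample, and Hk3 was not analysed here.

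Glucose 6-phosphate isomerase (Gpi1, chr7:34201330-34230336, minus strand) turns glucose 6-phosphate into fructose 6-phosphate. Gpi1 was at 518 FPKM in FLAG and 207 in FLAG-CACUL1, against 87.0 in sh-Luc and 60.3 in sh-CACUL1. Both FLAG lines were above both hairpin lines, and FLAG was 8.58-fold above sh-CACUL1, the second largest distance among the 10 enzymes.

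Phosphofructokinase commits the sugar to glycolysis, and 2 of its 3 subunits, the liver type Pfkl and the platelet type Pfkp, are among the 10. Pfkl (chr10:77986947-78010083, minus strand) was at 122, 102, 55.0 and 33.2 FPKM. Pfkp (chr13:6579768-6648777, minus strand) was at 83.4, 24.5, 14.7 and 7.43 FPKM. Pfkp had the widest range of the 10, with FLAG 11.2-fold above sh-CACUL1, and Pfkl the smallest ratio of FLAG to sh-Luc, 2.22-fold. Pfkm, the muscle subunit, was at 38.4, 28.9, 44.1 and 32.8 FPKM and was highest in sh-Luc. The share of Pfkp in the summed phosphofructokinase FPKM was 34.2% in FLAG and 15.8%, 12.9% and 10.1% in the others. The share of Pfkm was 15.7%, 18.6%, 38.7% and 44.6%, and that of Pfkl stayed between 45.2% and 65.6%.

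Aldolase A (Aldoa, chr7, minus strand) cleaves fructose 1,6-bisphosphate into a pair of triose phosphates. Triose phosphate isomerase (Tpi1, chr6:124810586-124814296, minus strand) interconverts them. Aldoa was at 2085 FPKM in FLAG and 1169 in FLAG-CACUL1, against 588 in sh-Luc and 769 in sh-CACUL1. Tpi1 was at 863, 458, 319 and 409 FPKM. These enzymes had the narrowest ranges of the 10, 3.55-fold for Aldoa and 2.70-fold for Tpi1, and FLAG exceeded FLAG-CACUL1 by 1.78-fold and 1.89-fold. In both the level in sh-CACUL1 was above that in sh-Luc, by 1.31-fold and 1.28-fold. Aldoc was not analysed here.

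Gapdh, glyceraldehyde 3-phosphate dehydrogenase, makes the NADH of the pathway and is encoded at chr6:125161715-125166467 on the minus strand. Gapdh was at 9160 FPKM in FLAG and 1851 in FLAG-CACUL1, against 1342 in sh-Luc and 1418 in sh-CACUL1. In FLAG it was the most abundant of all 13085 genes by FPKM, and in the other samples it ranked 19, 28 and 22. FLAG stood alone at 4.95-fold above FLAG-CACUL1, the widest gap of the 10 between these lines, whereas the other 3 samples lay within 1.38-fold of each other. The ratio of Gapdh to Aldoa was 4.39 in FLAG and 1.58, 2.28 and 1.84 in the others. The ratio of Gapdh to Tpi1 was 10.6 in FLAG and 4.04, 4.20 and 3.47 in the others. The ratio of Gapdh to Pgk1, the next enzyme, did not set FLAG apart, at 6.06, 1.82, 6.27 and 2.54. Of the 31-base windows of the Gapdh transcripts 79.9% also occur in other annotated genes, mostly processed pseudogenes, and how the authors assigned such reads is not stated.

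Phosphoglycerate kinase 1 (Pgk1, chrX:106187100-106203699, plus strand) makes the first ATP of the pathway. Pgk1 was at 1512 FPKM in FLAG and 1017 in FLAG-CACUL1, against 214 in sh-Luc and 558 in sh-CACUL1. Both FLAG lines lay within 1.49-fold of each other and above both hairpin lines, and sh-CACUL1 was 2.61-fold above sh-Luc and 1.82-fold below FLAG-CACUL1. Pgk1 shares 68.3% of its windows with another locus, the pseudogene Pgk1-rs7 above all, so its value is uncertain to that extent. The next enzyme, phosphoglycerate mutase 1 (Pgam1), was at 1325, 737, 312 and 341 FPKM, and made up over 99% of the summed mutase FPKM in every sample.

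Enolase 1 (Eno1, chr4:150236721-150248879, plus strand) makes phosphoenolpyruvate. Eno1 was at 1131 FPKM in FLAG and 703 in FLAG-CACUL1, against 315 in sh-Luc and 145 in sh-CACUL1. It therefore ran opposite to Pgk1 between the hairpin lines, 2.17-fold lower in sh-CACUL1, and the ratio of Pgk1 to Eno1 was 1.34, 1.45, 0.679 and 3.84. Eno1 shares 77.2% of its windows with other loci, chiefly Eno1b, so its value is uncertain too. Eno2, the neuronal enolase, was at 37.0 FPKM in FLAG and at 1.28, 3.34 and 1.76 in the others, and Eno3, the muscle enolase, was at 3.28 in FLAG and at 31.4, 28.2 and 12.6 in the others. The minor enolases thus set FLAG apart in opposite directions, with Eno2 highest and Eno3 lowest there, while both were lower in sh-CACUL1 than in sh-Luc. Eno1 held 90.9% or more of the summed FPKM of Eno1, Eno2 and Eno3 in all 4 samples. Eno1b, which has a row of its own, was not in this sum. Pyruvate kinase Pkm, which makes pyruvate, was at 1298, 1050, 471 and 343 FPKM, an order in which both FLAG lines were again above both hairpin lines.

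Lactate dehydrogenase A (Ldha, chr7:46841475-46855627, plus strand) was at 1680 FPKM in FLAG and 972 in FLAG-CACUL1, against 297 in sh-Luc and 438 in sh-CACUL1. Its B subunit partner Ldhb, which favours the use of lactate, was at 68.4, 39.6, 54.2 and 154 FPKM. Ldhb was highest in sh-CACUL1, where Ldha was the second lowest. The share of Ldhb in the summed lactate dehydrogenase FPKM was 3.91% in both FLAG lines, 15.4% in sh-Luc and 26.0% in sh-CACUL1. Windows shared with other genes were 32.3% for Ldha, 32.1% for Gpi1, 28.5% for Aldoa, 18.2% for Tpi1 and under 1% for Hk2, Pfkl and Pfkp.

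**Figure D2:**
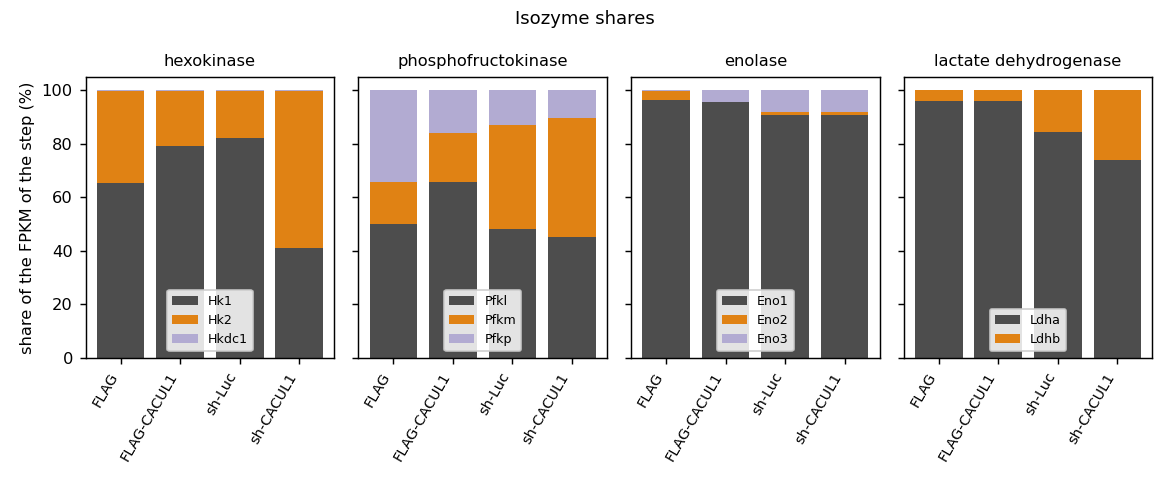
Share of each isozyme in the summed FPKM of its step (%), stacked to 100%, in each of the 4 samples, for hexokinase, phosphofructokinase, enolase and lactate dehydrogenase. Enolase is the sum of Eno1, Eno2 and Eno3 and leaves out Eno1b. Hk2 takes 58.9% of hexokinase in sh-CACUL1 alone, Pfkp 34.2% of phosphofructokinase in FLAG, and Ldhb goes from 3.91% in the FLAG lines to 26.0% in sh-CACUL1.

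Among the 30 pairs of neighbouring levels in these orders none had overlapping counting intervals, and the closest pair was Gapdh in sh-CACUL1 and sh-Luc, at a ratio of 1.06. The spread between cultures was not measured, so no pair can be set against it. Within a sample the ends of the order of the enzymes were stable: Gapdh was the highest and Aldoa the next in all 4, and Hk2 or Pfkp was the lowest. The middle of the order changed. From high to low it ran Ldha, Pgk1, Eno1, Tpi1 in FLAG and Tpi1, Eno1, Ldha, Pgk1 in sh-Luc. From the lowest to the highest enzyme the levels, which are per length, spanned 117-fold in FLAG and 93.0-fold in FLAG-CACUL1, with 129-fold in sh-Luc and 191-fold in sh-CACUL1.

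The comparison of FLAG-CACUL1 with FLAG sets the line labelled as overexpressing CACUL1, whose Cacul1 mRNA was 1.23-fold that of FLAG, beside its own vector control. All 10 enzymes were lower in FLAG-CACUL1, with a median difference of -0.87 on the log2(FPKM + 1) scale beside 0.09 over all genes. Hk2 (-1.93), Gpi1 (-1.32), Pfkp (-1.72) and Gapdh (-2.31) were past 2-fold, and Pfkl (-0.25) and Pgk1 (-0.57) differed least. In all, 4 of the 10 were at least 2-fold lower, beside 7.22% of all genes, and 0 of the 10 at least 2-fold higher, beside 7.51%. Since the members were chosen with this contrast known, nothing is read from these counts. By pathway stage the 6 enzymes up to Tpi1 had a median of -1.12 and the 4 from Gapdh on one of -0.74.

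The comparison of sh-CACUL1 with sh-Luc shows the cells depleted of CACUL1 beside their hairpin control. Here the enzymes split, with 6 higher (Hk2 0.27, Aldoa 0.39, Tpi1 0.36, Gapdh 0.08, Pgk1 1.38 and Ldha 0.56) and 4 lower (Gpi1 -0.52, Pfkl -0.71, Pfkp -0.90 and Eno1 -1.11). The split kept the same 6 and 4 directions under each scaling. The median of the 10 was 0.18, beside -0.30 over all genes, and the all-gene median moved to 0.01 under median-of-ratios scaling. At least 2-fold higher was 1 of the 10, Pgk1, beside 4.94% of all genes, and at least 2-fold lower was 1 of the 10, Eno1, beside 16.4%. Under median-of-ratios scaling Eno1 came to -0.64 and Ldha to 1.03, so these 2 enzymes change sides of the 2-fold line with the scaling. All 10 adipocyte markers were higher in sh-CACUL1, so the 4 enzymes that were lower there, both phosphofructokinase subunits among them, differed in the direction opposite to these markers.

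**Figure D3:**
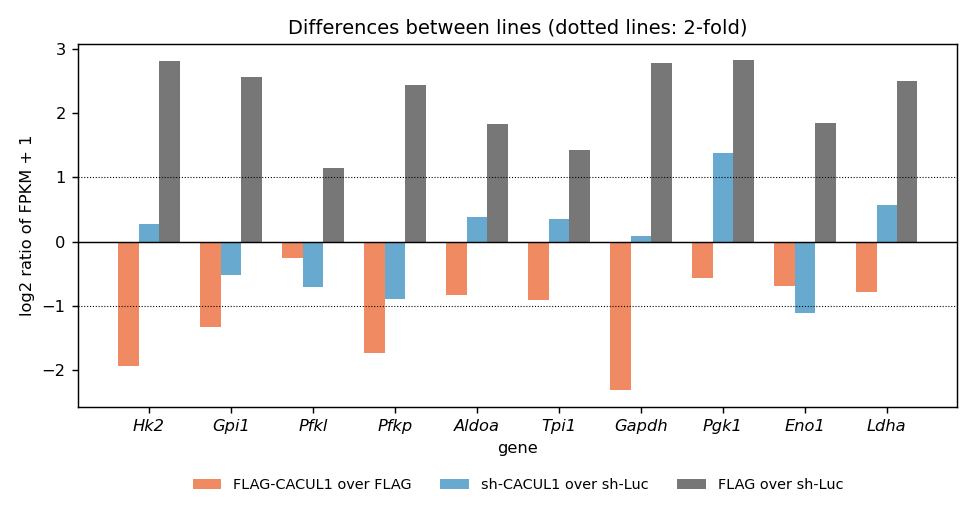
Log2 ratio of FPKM + 1 for each enzyme, as bars from 0, for FLAG-CACUL1 over FLAG, sh-CACUL1 over sh-Luc and FLAG over sh-Luc, with dotted lines at 2-fold. The bars of FLAG over sh-Luc run from 1.14 (Pfkl) to 2.81 (Hk2 and Pgk1) and are the longest for all 10 genes.

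The controls FLAG and sh-Luc differ in vector and drug and not in CACUL1 treatment, so their difference was set beside the others. All 10 enzymes were at least 2-fold higher in FLAG than in sh-Luc, beside 8.58% of all genes, and 0 of the 10 were at least 2-fold lower, beside 12.4%. The median log2 difference was 2.46, with a range from 1.14 for Pfkl to 2.81 for Hk2 and Pgk1, beside -0.18 over all genes. For every one of the 10 this distance between the controls was larger than the distance of either CACUL1 line from its own control. The count was 9 of 10 after rescaling to a common sum, where Pfkl came to 0.96, and 10 of 10 under the other scalings.

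The direction depended on the control for all 10 enzymes in FLAG-CACUL1 and for 6 of the 10 in sh-CACUL1. Against sh-Luc, FLAG-CACUL1 was higher for all 10 enzymes, from 0.46 for Gapdh to 2.24 for Pgk1, and at least 2-fold higher for 4 of the 10 (Gpi1, Pgk1, Eno1 and Ldha), beside 5.04% of all genes. Against FLAG, sh-CACUL1 was lower for all 10, from -1.08 for Tpi1 to -3.32 for Pfkp, so that Gpi1, Pfkl, Pfkp and Eno1 were lower against either control, and at least 2-fold lower for 10 of the 10, beside 15.4%. These comparisons share control samples with the ones above, and their values are given side by side only. They cross vectors and drugs.

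**Figure D4:**
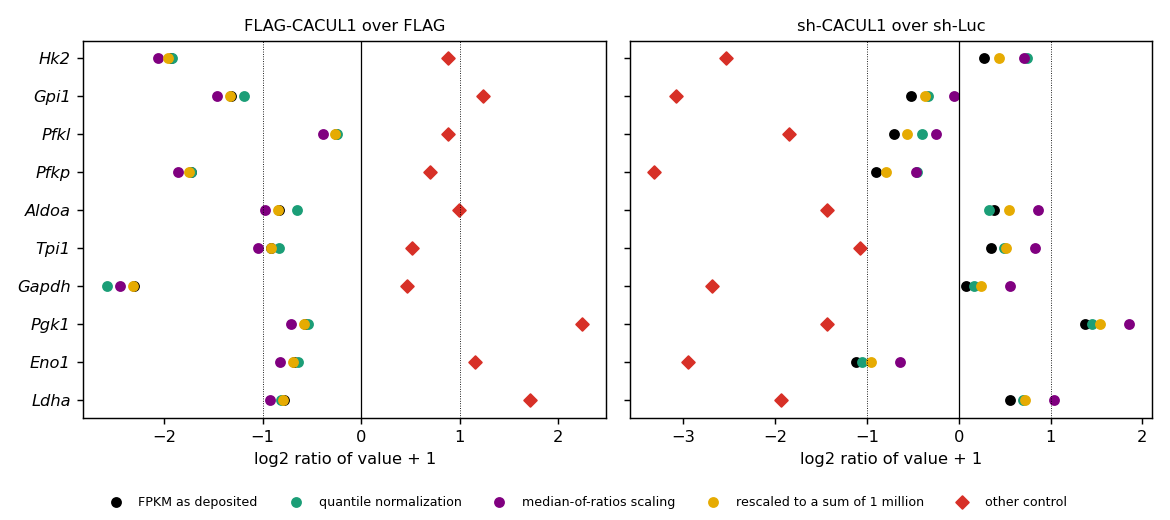
Log2 ratio of each enzyme for FLAG-CACUL1 over FLAG (left) and sh-CACUL1 over sh-Luc (right) with FPKM as deposited, under 3 scalings, and against the other control (diamonds; FLAG-CACUL1 over sh-Luc and sh-CACUL1 over FLAG), with dotted lines at 2-fold. The scalings leave every enzyme on its side of 0, and the other control puts all 10 on the right of 0 in the left panel and on the left of 0 in the right panel.

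The study's RT-qPCR was normalized to Gapdh. Its primer pair is shown because it reads a gene whose level differed between the lines:
forward: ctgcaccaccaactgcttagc
reverse: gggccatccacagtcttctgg
The forward primer lies in exon 4 of 7 at chr6:125162895-125162915 and the reverse primer in exon 5 at chr6:125162662-125162682 on GRCm38, both within the coding part of the 2 RefSeq-matched Gapdh transcripts, and they bound 120 bases. Full matches to both primers were found in 49 other annotated genes.

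Of 14 other genes in use as RT-qPCR references Rplp0, Tbp and Rps18 varied least, with ranges of 0.36, 0.38 and 0.50 in log2 FPKM over the 4 samples. B2m (3.91) and Gusb (2.60) varied most. The range of Gapdh was 2.77, wider than all but that of B2m. Relative to the mean log2 FPKM of the 14 genes Gapdh stood at 5.76 in FLAG and at 3.26, 2.82 and 3.13 in the other samples. The mean of the 10 enzymes relative to the same genes was 2.00, 0.66, -0.40 and -0.21. FLAG was apart from the other samples in both measures.

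The 5 genes whose profile was most like the median profile of the 10 enzymes were sought among 3814 other genes that reached 10 FPKM in every sample, by the root mean square difference of centred log2(FPKM + 1) over the 4 samples. The closest was Pgam1, an enzyme of the same pathway, at 0.0729. It was followed by Dcxr, a xylulose reductase, at 0.134 with 70.9, 44.1, 17.7 and 19.5 FPKM, and by Ddit4, a stress-induced inhibitor of mTORC1, at 0.147 with 247, 90.3, 48.3 and 49.8 FPKM. Rras, a small GTPase, came next at 0.158 with 172, 74.5, 46.1 and 42.6 FPKM, then Hikeshi, a nuclear import factor of HSP70, at 0.171 with 77.2, 27.6, 16.2 and 14.7 FPKM. Each of the 5 was highest in FLAG. Among the 10 enzymes themselves Ldha (0.225) and Aldoa (0.231) were nearest to the median profile and Pgk1 (0.504) and Eno1 (0.496) farthest from it.

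Other isozymes and steps of glycolysis followed the 10 enzymes only in part. Of 18 listed genes 9 had a row. Of these 9, 4 were at least 2-fold higher in FLAG than in sh-Luc (Hk1, Pgam1, Eno2 and Pkm), beside 8.58% of all genes, and 2 at least 2-fold lower (Eno3 and Pgam2), beside 12.4%. The full order of the 10 enzymes held for 3 of the 9, beside 9.86%.

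The mRNAs of glucose and lactate transporters, which serve the entry and the exit of the pathway, were highest in FLAG for all 5 measured genes of the list. The glucose transporter Slc2a1 (GLUT1) was at 1063 FPKM in FLAG and 68.2 in FLAG-CACUL1, against 60.4 in sh-Luc and 14.5 in sh-CACUL1. Basigin (Bsg), the chaperone of lactate transporters, was at 7524, 1080, 625 and 425 FPKM, and the lactate transporter Slc16a1 at 64.3, 26.0, 16.4 and 10.9. The insulin-regulated transporter Slc2a4 (GLUT4) was at 41.7, 0.101, 1.13 and 12.3 FPKM, so that sh-CACUL1 and not FLAG-CACUL1 came second. All 5 measured genes of the list were lower by 2-fold or more in FLAG-CACUL1 than in FLAG, beside 7.22% of all genes, and all 5 were higher by 2-fold or more in FLAG than in sh-Luc, beside 8.58%.

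The branches of the pathway are given next by their lists, with no test between them. Of 10 genes of glycogen metabolism 5 had FLAG-CACUL1 below FLAG by 2-fold or more, beside 7.22% of all genes, and 4 had FLAG above sh-Luc by as much, beside 8.58%. Glycogen synthase Gys1 was at 229, 72.8, 22.1 and 34.5 FPKM, the branching enzyme Gbe1 at 82.6, 9.03, 10.0 and 7.86, and phosphoglucomutase Pgm1 at 176, 50.8, 32.3 and 34.3, all highest in FLAG, whereas Pgm2 was at 8.90, 14.0, 10.4 and 3.36. In the pentose phosphate pathway 1 of 7 genes, the transketolase Tkt (122, 52.0, 51.6 and 94.5 FPKM), was at least 2-fold lower in FLAG-CACUL1, beside 7.22% of all genes, and 1, the transaldolase Taldo1 (112, 59.1, 56.0 and 159 FPKM), passed 2-fold upwards between sh-Luc and sh-CACUL1, beside 4.94%. Pgd was at 57.0, 52.1, 47.0 and 79.0 FPKM and Rpia at 9.63, 10.7, 8.29 and 13.3. For Taldo1, Pgd and Rpia sh-CACUL1 was the highest sample.

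Glycerol 3-phosphate dehydrogenase Gpd1, which takes triose phosphate to the backbone of triglyceride, was at 46.9 FPKM in FLAG and 1.49 in FLAG-CACUL1, against 16.3 in sh-Luc and 213 in sh-CACUL1. Its relatives Gpd2 (11.0, 11.8, 11.5 and 21.9 FPKM) and Gpd1l (2.66, 2.80, 5.54 and 7.64 FPKM) were also highest in sh-CACUL1. Pyruvate carboxylase Pcx, which makes oxaloacetate from pyruvate, was at 216, 29.8, 84.3 and 350 FPKM. Gpd1 and Pcx were thus lower in FLAG-CACUL1 and higher in sh-CACUL1 than in the control of each, as were the adipocyte markers. By direction alone 6 of the 10 enzymes were too. In sh-CACUL1 over sh-Luc, however, these 6 ran from 0.08 (Gapdh) to 1.38 (Pgk1) in log2, and only Pgk1 passed 2-fold. Gpd1 stood at 3.63 and Pcx at 2.04 there. The other measured gluconeogenic genes, Pck2 (54.7, 24.3, 22.9 and 20.6 FPKM) and G6pc3 (18.1, 16.2, 6.16 and 4.95 FPKM), were highest in FLAG.

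Of 13 genes for the entry of pyruvate into mitochondria 6 had sh-CACUL1 above sh-Luc by 2-fold or more, beside 4.94% of all genes, and 2 had it below by as much, beside 16.4%. The pyruvate carrier Mpc1 was at 58.4, 32.2, 50.6 and 186 FPKM and the dehydrogenase subunit Pdhb at 97.4, 40.9, 64.3 and 221. The dehydrogenase kinase Pdk4, which inhibits the complex, was at 5.82, 3.06, 12.6 and 1.36, and the phosphatase Pdp1 at 2.74, 5.36, 14.1 and 3.17. Pdhb and Mpc1 were highest and Pdk4 lowest in sh-CACUL1. Among 6 regulators of fructose 2,6-bisphosphate and bisphosphoglycerate Pfkfb3 was at 7.01, 3.51, 0.436 and 3.88 FPKM, Pfkfb2 at 1.17, 3.21, 6.30 and 3.36, and Bpgm at 3.85, 6.51, 5.84 and 6.74, and none of the 6 had the order of the 10 enzymes.

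A list of 16 genes held Hif1a, its partners and regulators, and known HIF1 targets outside glycolysis. Of these, 12 had FLAG-CACUL1 below FLAG by 2-fold or more, beside 7.22% of all genes, and 12 had FLAG above sh-Luc by as much, beside 8.58%. Their medians were -1.88, -0.38 and 3.24 in log2 for FLAG-CACUL1 over FLAG, sh-CACUL1 over sh-Luc and FLAG over sh-Luc. FLAG was the highest sample for 14 of the 16, beside 22.3% of all genes, and 10 of the 16 had the full order of the enzymes, beside 9.86%. The oxidoreductase Ero1l was at 2673 FPKM in FLAG and 339 in FLAG-CACUL1, against 119 in sh-Luc and 52.3 in sh-CACUL1. Carbonic anhydrase Car9 was at 51.6, 0.0375, 0.178 and 0.924, adrenomedullin Adm at 196, 15.5, 13.1 and 0.525, and Ndrg1 at 57.8, 6.40, 0.617 and 0.327. The mRNA of Hif1a itself was at 62.1, 106, 70.0 and 23.0 FPKM and was not highest in FLAG. Culture density, oxygen and medium of the 4 samples are not given in the labels, and the part of HIF1 in these differences was not tested.

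**Figure D5:**
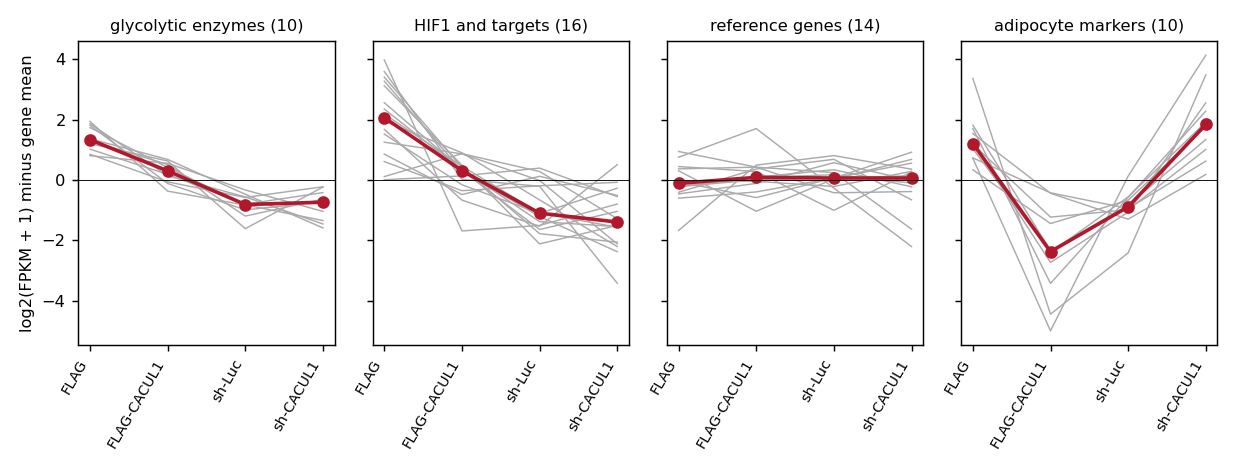
Log2(FPKM + 1) minus the mean of each gene over the 4 samples, as grey lines per gene and a red line for the list median, for the 10 glycolytic enzymes, the 16 genes of the HIF1 list, 14 reference genes and 10 adipocyte markers. The enzyme median goes from 1.34 in FLAG to 0.30 in FLAG-CACUL1, with -0.81 in sh-Luc and -0.73 in sh-CACUL1. By comparison, the HIF1 list spans a wider range and the reference median stays near 0. Of the 10 adipocyte markers 8 are lowest in FLAG-CACUL1, 6 are highest in sh-CACUL1 and 4 are highest in FLAG.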

How the data were processed

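RNA-seq of 4 samples was analysed, 1 for each stable line (FLAG, FLAG-CACUL1, sh-Luc, sh-CACUL1). FPKM values were deposited by the authors per row of RefSeq transcripts (13110 rows a sample), made by a company. The submitters' processing notes name the build mm10. Aligner, FPKM program, handling of shared reads and scaling between samples are not given in the sources used here.

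Rows were joined to symbols through GENCODE M21 on GRCm38, the assembly of mm10. No symbol was found for 196 rows and 8 had several, and 50 rows of 25 symbols were summed, which left 13085 genes. Levels are FPKM and differences log2(FPKM + 1), which understates the change of low genes. A gene counted past the line at 2-fold. With 1 sample per group no test was run and no p-value is given. Depth was estimated from the steps of low FPKM values in transcripts of at least 3000 bases. The fold-change step was run on made-up tables of 13085 genes. It recovered 200 of 200 planted changes for FLAG-CACUL1 over FLAG, and 200 of 200 for sh-CACUL1 over sh-Luc. The planted changes were well past 2-fold, lay only in genes of higher mean level and carried counting noise alone. The run therefore checked the arithmetic only and says nothing of smaller changes, lower genes or the spread between cultures.

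The members and gene lists were chosen with earlier results of these data known. Named genes were all 10 enzymes, other glycolytic isozymes reaching 5 FPKM in a sample (Pgam2 and Hkdc1, below it, were named after their values were seen), up to 4 genes per other pathway list with the largest absolute log2 difference, the 5 nearest profiles, and the 3 least and 3 most variable reference genes, of which 1 is not reported here. Promoters came from RefSeq (GRCm38.p6), motifs were searched on both strands, and transcripts were compared in windows of 31 bases. Alternatives were pseudocounts of 0.1 and 0, a minimum of 1 FPKM, 3 scalings, the other control, the highest row per symbol and a 3-fold line. Python 3.11.15, numpy 2.4.6, pandas 2.3.3, scipy 1.17.1 and matplotlib 3.10.9 were used.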

Additional observations from a re-analysis of the deposited data

How the results depend on the processing

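Pseudocounts, the minimum of 1 FPKM and the highest row per symbol moved none of the 20 single log2 values of the enzymes beyond their counting intervals, and no scaling turned a called value. Against the other control the counts for FLAG-CACUL1 were 4 higher and 0 lower, with a median of 0.94, and Hk2, Gpi1, Pfkp and Gapdh turned to 0.88, 1.24, 0.70 and 0.46. For sh-CACUL1 they were 0 higher and 10 lower, with a median of -2.23, and Pgk1 turned to -1.44. Under median-of-ratios scaling the median was -1.01 for FLAG-CACUL1, and for sh-CACUL1 it was 0.63 with 2 enzymes higher and 0 lower. Rescaling to a common sum left 0 lower in sh-CACUL1, and a 3-fold line left 0 higher and 0 lower there and 3 lower in FLAG-CACUL1. Relative to all genes with at least 1 FPKM in place of the reference genes, the mean level of the enzymes was 5.68 in FLAG and 4.45 in FLAG-CACUL1, with 3.23 in sh-Luc and 3.65 in sh-CACUL1, a shift of the reference level. No paired analysis was possible because each group has 1 sample. The half-width of the counting interval was at most 10.2% of a level, and the spread between cultures is unknown.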

Other observations

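The following values were chosen after the data were seen. Setting genes measured by the study's RT-qPCR per Gapdh in these FPKM values lessened or turned their difference between FLAG-CACUL1 and FLAG. Without a pseudocount the log2 ratio of Fabp4 went from -3.96 to -1.65 per Gapdh, that of Adipoq from -5.19 to -2.88, that of Pparg, the adipogenic nuclear receptor, from -2.51 to -0.21 and that of Cebpa, its partner factor, from -2.54 to -0.23. Mrap went from -8.49 to -6.19 and Retn from -4.78 to -2.48. Lpl, the lipase that frees fatty acids for uptake, went from -1.16 to 1.15, and Cd36, a fatty acid translocase, from -1.81 to 0.50. Set per the mean of the 14 reference genes instead, none of these genes turned, with Lpl at -1.36 and Cd36 at -2.01. In sh-CACUL1 over sh-Luc the per-Gapdh step moved each by the 0.08 of Gapdh itself, for example Fabp4 from 3.62 to 3.54. These are ratios of FPKM values and not RT-qPCR measurements, and they say nothing of the levels RT-qPCR gives.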
